A study of Arabidopsis thaliana with 20 samples.

Results

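The 10 genes described here encode enzymes that make and degrade leaf starch in Arabidopsis thaliana. They were taken by their gene identifiers from the 32744 genes of the count files, and all 10 had a mean of at least 10 counts and were tested. A set of 5 acts in synthesis (APS1, APL1, GBSS1, SS1 and SS4) and a set of 5 in breakdown (GWD1, SEX4, BAM3, DPE1 and DPE2). The RNA came from whole rosettes of wild type Col-0 plants at Boyes stage 1.09, grown in soil at 21 °C by day and 19 °C by night for 8 days and then for 19 days on the Phenoscope, a platform that waters each plant automatically, at 60% soil water. The labels name 10 N-limiting libraries (2.5 mM nitrate) and 10 N-sufficient libraries (5 mM nitrate). The counts of each N-sufficient library were equal to those of the N-limiting library of the same number at all 32744 genes, so no nitrogen supplies were compared and the values below are given for 10 libraries, under their N-limiting label. Which of the supplies the equal counts were measured in cannot be told from the values. The number of plants in a library and the hour of harvest are not given in the sources used here.

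Leaves store part of the carbon fixed by day as starch granules in the chloroplast and use it up during the night. Synthesis starts with ADP-glucose pyrophosphorylase, and starch synthases then extend the glucan chains of the granule. Breakdown starts with phosphorylation of the granule surface. Phosphatases and beta-amylases follow, and the maltose they release leaves the chloroplast and is metabolised in the cytosol. Transcripts of many of these enzymes are known to follow the day-night cycle in Arabidopsis leaves.

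Total counts ranged between 41423334 (replicate 3) and 60323158 (replicate 10) per library, with a median of 44010088. These totals are higher than the reads per library that the methods give, and whether reads that match several places were counted repeatedly is not given in the sources used here. A total or a chloroplast share is thus one of counts, not of reads. Chloroplast genes took between 63.9% (replicate 1) and 72.4% (replicate 3) of the counts. On the first principal component of the 18442 genes tested, replicates 1, 4, 8 and 9 had scores between -34.7 and -25.5, replicates 2, 3, 5, 6 and 7 scores between 15.4 and 33.1, and replicate 10 a score of 0.20. The labels give no batch that separates these libraries. The leaf markers RBCS1A, LHCB1.1 and RCA averaged 5382, 4213 and 1437 CPM (counts scaled to the library total and its TMM factor, the usual CPM of edgeR). Of the root markers, CASP1 and MYB36 had at most 12 and 3 counts in any library, while SCR had 75 to 143. The flower markers AP3 and PI had at most 1 count, AG had 1 to 7, and the seed markers CRC, CRA1 and OLEO1 had at most 2.

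The promoter sequences of 5 of the enzymes are shown because GWD1, BAM3, DPE2 and SS4 moved together between libraries, whereas DPE1 was nearly constant. Each window runs from 250 bases before to 50 bases after the annotated gene start and was read on the gene's strand from the RefSeq assembly TAIR10.1. Capitals mark matches on either strand to the evening element AAAATATCT, the CCA1-binding site AAAAATCT, both bound by clock factors, or the G-box CACGTG. No pair of these motifs overlapped in the windows shown.

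GWD1, chr1:3590879-3591178, minus strand: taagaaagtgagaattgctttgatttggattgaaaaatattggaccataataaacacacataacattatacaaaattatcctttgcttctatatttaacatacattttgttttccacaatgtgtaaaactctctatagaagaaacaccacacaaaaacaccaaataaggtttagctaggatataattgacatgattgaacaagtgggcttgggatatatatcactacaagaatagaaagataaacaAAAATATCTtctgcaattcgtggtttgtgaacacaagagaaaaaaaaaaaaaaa
BAM3, chr4:9607353-9607652, minus strand: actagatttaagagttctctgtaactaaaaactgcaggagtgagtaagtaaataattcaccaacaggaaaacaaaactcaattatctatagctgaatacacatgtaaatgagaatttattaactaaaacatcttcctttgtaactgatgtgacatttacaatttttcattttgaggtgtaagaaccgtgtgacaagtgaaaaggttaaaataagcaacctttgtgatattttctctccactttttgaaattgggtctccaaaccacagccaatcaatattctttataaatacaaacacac
DPE2, chr2:17044682-17044981, plus strand: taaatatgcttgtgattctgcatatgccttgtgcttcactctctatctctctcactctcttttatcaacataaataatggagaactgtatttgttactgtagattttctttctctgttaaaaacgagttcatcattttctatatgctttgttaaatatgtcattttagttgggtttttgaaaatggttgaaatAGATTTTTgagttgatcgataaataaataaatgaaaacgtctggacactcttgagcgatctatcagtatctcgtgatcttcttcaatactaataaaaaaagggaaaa
SS4, chr4:10081858-10082157, plus strand: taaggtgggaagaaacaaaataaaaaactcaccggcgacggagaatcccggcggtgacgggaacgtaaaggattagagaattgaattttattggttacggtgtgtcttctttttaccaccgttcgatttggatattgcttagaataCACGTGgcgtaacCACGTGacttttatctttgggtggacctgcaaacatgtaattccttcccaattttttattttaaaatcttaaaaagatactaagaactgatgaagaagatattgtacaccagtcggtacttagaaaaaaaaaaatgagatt
DPE1, chr5:25928830-25929129, minus strand: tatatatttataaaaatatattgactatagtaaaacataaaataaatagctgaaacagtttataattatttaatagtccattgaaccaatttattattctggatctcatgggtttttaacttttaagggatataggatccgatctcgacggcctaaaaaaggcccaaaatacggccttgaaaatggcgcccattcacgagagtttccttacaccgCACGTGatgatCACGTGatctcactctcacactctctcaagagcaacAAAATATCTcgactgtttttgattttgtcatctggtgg

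The GWD1 window held 1 evening element, which began 4 bases before the gene start. The SS4 window held 2 G-boxes and the DPE2 window 1 CCA1-binding site on the opposite strand. No match was found in the BAM3 window. The DPE1 window held 2 G-boxes and 1 evening element. Over all 10 enzymes, 2 windows held an evening element, 1 a CCA1-binding site and 3 a G-box (SS1, SS4 and DPE1). Of 27443 promoters of the same length, 2.82%, 7.88% and 7.68% held these motifs. A match is only a description of the letters in the window.

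Levels were compared between genes as CPM per kilobase of exon. The median over 18255 nuclear genes tested was 2.19 CPM per kilobase, and all 10 enzymes were above it on average. DPE2 had the highest mean, 36.2 ± 4.96 CPM per kilobase (SD, n = 10 libraries, as for the values that follow). APL1 (33.5 ± 4.87), APS1 (29.4 ± 5.12), GBSS1 (27.6 ± 5.45) and BAM3 (21.3 ± 7.21) followed it in CPM per kilobase. SS1 (17.4 ± 1.29), SEX4 (17.2 ± 2.31) and GWD1 (14.1 ± 2.62) were mid-range among the 10 enzymes only. Their means were above those of 91.6%, 91.5% and 89.8% of the nuclear genes tested. DPE1 (8.19 ± 0.430) and SS4 (3.49 ± 0.742) were the lowest. Of the 9 pairs of neighbours in this order, 4 did not differ beyond their spread (exact two-sided sign-flip permutation test over 10 libraries, unadjusted). These were DPE2 and APL1 (ratio 1.08, p = 0.143), APS1 and GBSS1 (1.06, p = 0.354), BAM3 and SS1 (1.16, p = 0.166) and SS1 and SEX4 (1.02, p = 0.609). Ratios in this paragraph are geometric means of the ratios in each library, not ratios of the means above. BAM3 was higher than SS1 in 5 of 10 libraries. DPE1 was lower than GWD1 and higher than SS4 in 10 of 10 libraries (ratios of 1.70 and 2.40, each p = 0.00195, the smallest this test can give). With coding length in place of exon length, SEX4 moved ahead of BAM3 and SS1, and the other 7 enzymes kept their place.

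**Figure D1:**
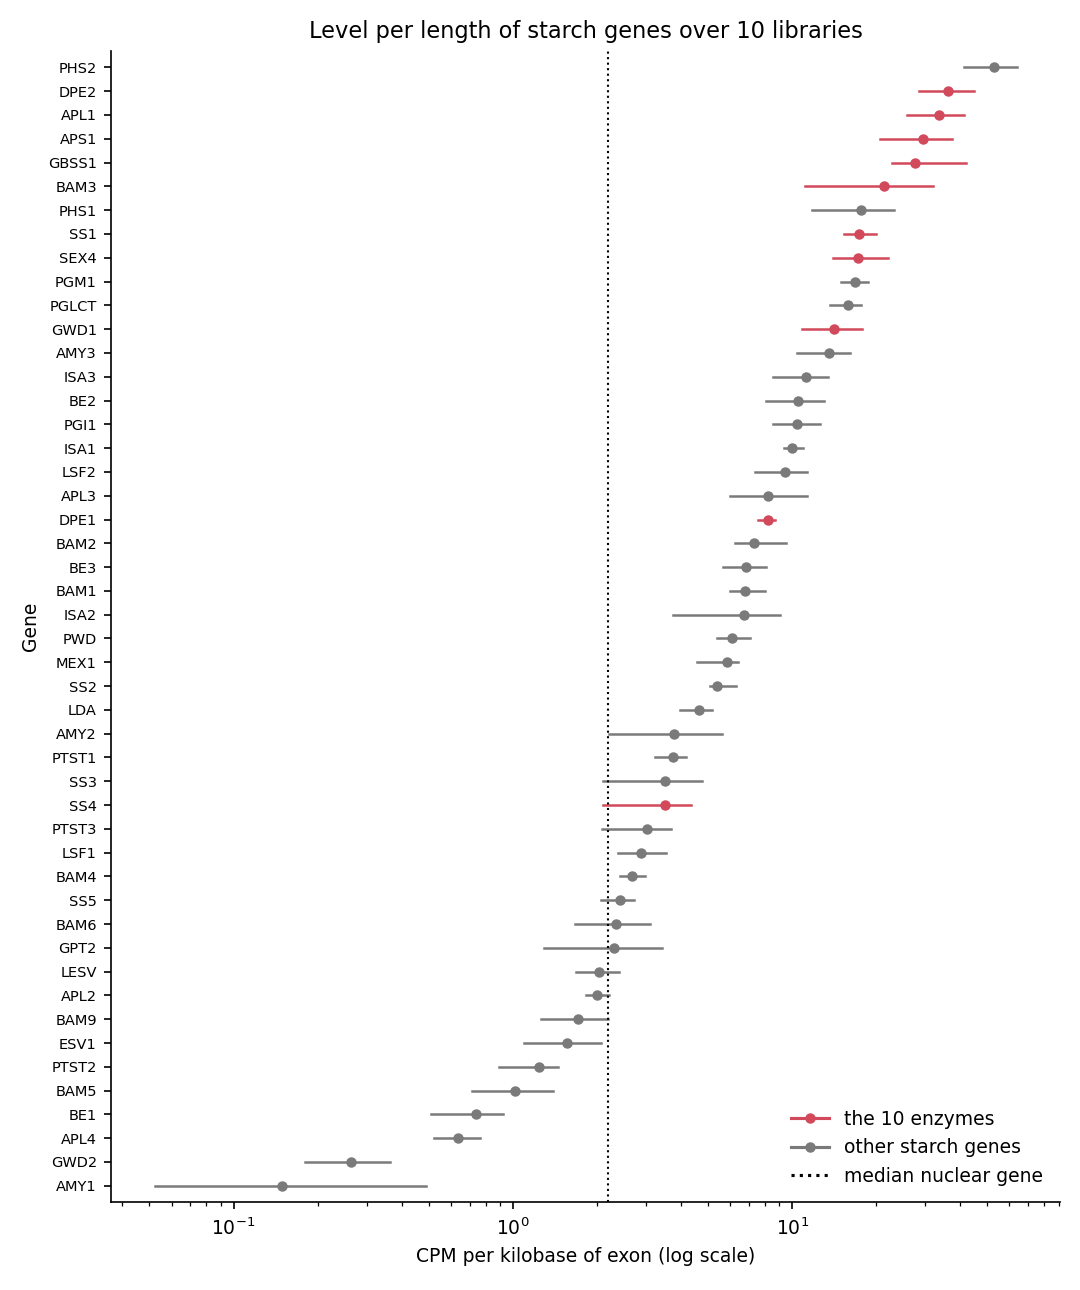
Level per length of the 10 starch enzymes (red) and of 38 other starch genes (grey), as CPM per kilobase of exon on a log scale. Points are means and lines run from the lowest to the highest of 10 libraries, and the dotted line is the median nuclear gene, 2.19 CPM per kilobase.

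APS1 is the catalytic small subunit and APL1 the main leaf large subunit of ADP-glucose pyrophosphorylase, which makes the glucosyl donor for starch. The APS1 gene (AT5G48300) lies at chr5:19570238-19572804 (RefSeq TAIR10.1, as for all coordinates here) and the APL1 gene (AT5G19220) at chr5:6463824-6466831. APS1 had 39.3 CPM in the lowest library (replicate 3), a median of 56.2 and 70.7 CPM in the highest (replicate 10). APL1 had 44.6 CPM in the lowest library (replicate 9), a median of 58.5 and 71.7 CPM in the highest (replicate 10). Replicate 9 was thus the lowest library for APL1, whereas replicate 3 was the lowest for APS1. APL1 shares 2386 bases with a long non-coding RNA gene on the opposite strand, AT5G19221. That gene had 9 to 22 counts per library, against 1611 to 4679 counts for APL1.

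The starch synthases differed in spread. GBSS1 (AT1G32900, chr1:11920390-11923866), which makes the unbranched amylose, had 52.4 CPM in the lowest library (replicate 8), a median of 60.5 and 96.1 CPM in the highest (replicate 10). Replicate 10 stood apart, since the next library had 68.1 CPM. Without it, the coefficient of variation of GBSS1 was 8.55% in place of 19.7%. SS1 (AT5G24300, chr5:8266566-8271205), which extends short chains of amylopectin, had 41.1 CPM in the lowest library (replicate 3), a median of 46.5 and 53.1 CPM in the highest (replicate 10). SS4 (AT4G18240, chr4:10082108-10087203), which takes part in starting new granules, had 7.14 CPM in the lowest library (replicate 3), a median of 12.0 and 14.7 CPM in the highest (replicate 8), a ratio of 2.07. In bulk rosettes, fewer cells of a type and less RNA per cell cannot be told apart in any of these values.

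GWD1 and SEX4 control the phosphate on the granule, as the kinase that adds it and a phosphatase that removes it. GWD1 (AT1G10760, chr1:3580830-3590928) had 54.5 CPM in the lowest library (replicate 2), a median of 72.0 and 89.4 CPM in the highest (replicate 8). SEX4 (AT3G52180, chr3:19349600-19353728) had 27.9 CPM in the lowest library (replicate 9), a median of 32.9 and 43.8 CPM in the highest (replicate 10). The library with the lowest SEX4 level was thus among the 5 highest for GWD1.

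BAM3 is the main beta-amylase of the leaf chloroplast and releases maltose. BAM3 (AT4G17090, chr4:9604962-9607402) was the most variable of the 10 enzymes, with a coefficient of variation of 33.8%, above that of 91.7% of the genes tested. Its levels fell into a lower set of 5 libraries (replicates 2, 3, 5, 6 and 7) with 23.4 to 36.0 CPM and a higher set of 5 (replicates 1, 4, 8, 9 and 10) with 53.0 to 67.0 CPM. Each set holds fewer than 6 libraries, so no coefficient within a set is given, and the slopes and tests of BAM3 below span both sets, with the step between them included. BAM3 shares 518 bases with an opposite long non-coding RNA gene, AT4G06665, which had 2 to 12 counts per library, against 778 to 4372 counts for BAM3.

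The transglucosidases DPE1 and DPE2 act at different ends of the pathway. DPE1 (AT5G64860, chr5:25925173-25928879) recycles short glucans in the chloroplast, and DPE2 (AT2G40840, chr2:17044932-17051062) uses the exported maltose in the cytosol. DPE1 had 15.3 CPM in the lowest library (replicate 4), a median of 16.6 and 17.5 CPM in the highest (replicate 8). This 1.15-fold range gave a coefficient of variation of 5.25%, and 1.38% of the genes tested had a lower one. DPE2 had 96.9 CPM in the lowest library (replicate 3), a median of 121 and 152 CPM in the highest (replicate 10).

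**Figure D2:**
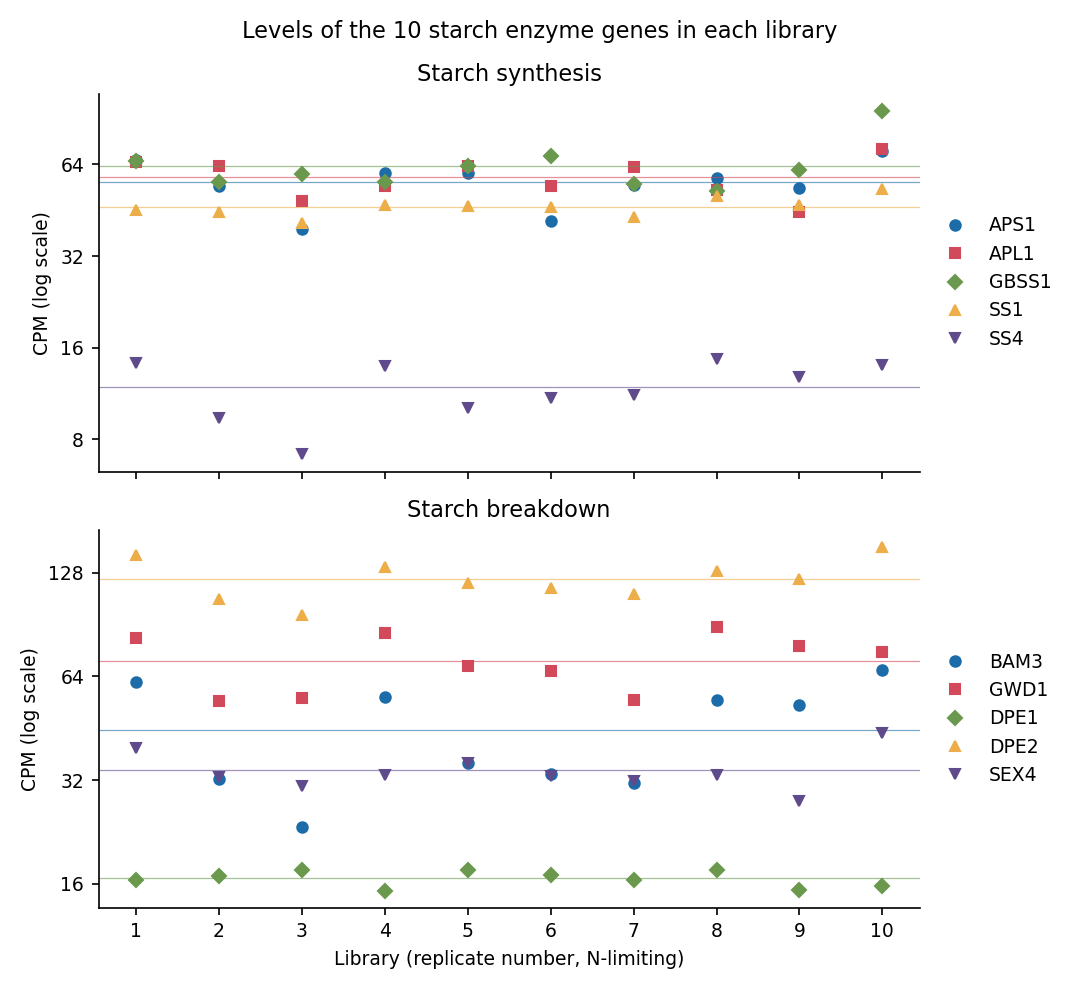
CPM of the 5 synthesis genes (upper panel) and of the 5 breakdown genes (lower panel) in each of the 10 N-limiting libraries, on a log scale, with the mean of each gene as a line. BAM3 separated into 23.4 to 36.0 CPM and 53.0 to 67.0 CPM, while DPE1 stayed between 15.3 and 17.5 CPM.

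The ratio of the highest to the lowest library was above 1.5 for 8 of the 10 enzymes, against 64% of all genes tested, and the exceptions were SS1 (1.29) and DPE1 (1.15). Without replicate 10, the count was 4 of 10, against 61.1% of all genes, since the ratios of APL1 (1.47), GBSS1 (1.29), DPE2 (1.49) and SEX4 (1.43) were then below 1.5. The median coefficient of variation was 16.0% over the 10 enzymes and 15.5% over all genes tested. Replicate 10, the library with the highest total, was the highest library for 7 of the 10 enzymes (APS1, APL1, GBSS1, SS1, BAM3, DPE2 and SEX4). The share of all genes with their highest level in replicate 10 was not computed, so this count is not one particular to the enzymes. The permutation test of total counts against the level of each gene passed for none of the enzymes and for 0% of all genes after adjustment. The part of the total in the levels of replicate 10 was not tested further.

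The next question was which enzymes rose with GWD1, the enzyme that starts breakdown, across libraries of the same condition. The slope of log2 CPM on that of GWD1 was tested with edgeR's quasi-likelihood test and Benjamini-Hochberg adjustment over 18441 genes. A slope of 1 means that a gene doubled when GWD1 doubled. BAM3, DPE2 and SS4 rose with GWD1, 3 of the other 9 enzymes, against 13.8% of all genes. None fell with it, against 9.82% of all genes. The slope was 1.63 ± 0.27 log2 per log2 for BAM3 (SE, adjusted p = 0.00125), 0.99 ± 0.20 for SS4 (adjusted p = 0.00358) and 0.58 ± 0.18 for DPE2 (adjusted p = 0.0275). The slope of BAM3 passed the test with each library left out in turn, with values of 1.44 to 1.78. That of SS4 did so too, with values of 0.78 to 1.23. That of DPE2 lost the call without replicate 1, 2 or 3 (adjusted p of 0.0606, 0.0602 and 0.0918), with slopes of 0.54, 0.60 and 0.49. Replicates 1, 4, 8, 9 and 10 were the 5 highest libraries for GWD1, BAM3, DPE2 and SS4 alike. The same 5 libraries were the highest for 3 of the 9 other enzymes, against 8.81% of all genes. They include replicates 1, 4, 8 and 9, which had the negative scores on the first principal component. They also had the lowest levels of the leaf markers LHCB1.1 (2786 to 4049 CPM, against 4440 to 5606 CPM in the other 5) and RBCS1A (4381 to 5456 CPM, against 5554 to 6388 CPM). The root marker CASP1 was higher in them (0.153 to 0.226 CPM, against 0.0488 to 0.144 CPM), at 8 to 12 counts against 2 to 7. CASP1 averaged under 10 counts and was not among the genes tested. The leaf marker RCA and the root markers SCR and MYB36 overlapped between these libraries and the other 5. The share of all genes that were lowest in these libraries was not computed, so the markers have no background to be set against. The part of any marker in the slopes was not tested.

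**Figure D3:**
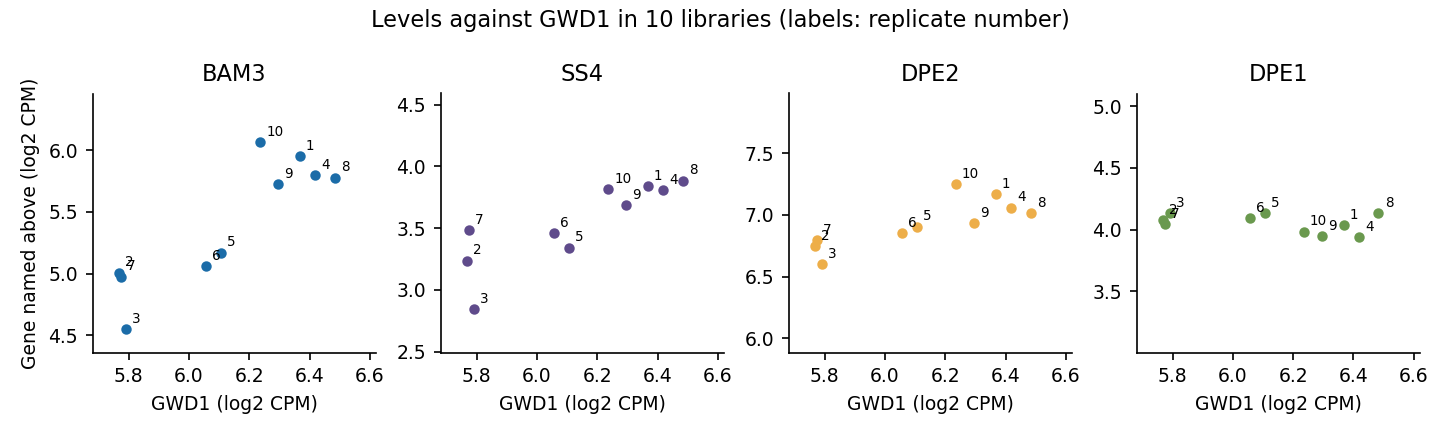
log2 CPM of BAM3, SS4, DPE2 and DPE1 against log2 CPM of GWD1, with 1 point per library and the replicate number beside it; all panels span the same range of log2 units. The 5 libraries with the highest GWD1 (1, 4, 8, 9 and 10) were also the highest for BAM3, SS4 and DPE2, whereas DPE1 had a slope of -0.10 ± 0.13 (SE).

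The other 6 enzymes did not pass the test against GWD1. APS1 and SS1 had slopes of 0.50 ± 0.24 and 0.27 ± 0.14 (SE; adjusted p of 0.149 and 0.179). SEX4 and GBSS1 had slopes of 0.21 ± 0.21 and 0.14 ± 0.28 (adjusted p of 0.516 and 0.754). DPE1 had -0.10 ± 0.13 and APL1 -0.08 ± 0.23 (adjusted p of 0.626 and 0.844). The slope of the phosphatase gene SEX4 on the kinase gene GWD1 was thus within 1 SE of 0. The median slope was 0.27 over the 9 enzymes and -0.02 over all genes tested.

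Against APS1, the enzyme that starts synthesis, BAM3 alone passed the same test (slope 1.53 ± 0.35, SE, adjusted p = 0.0308), 1 of 9 enzymes. Upward slopes passed for 2.78% of all genes and downward slopes for 1.95%. The call was lost without replicate 1, 3, 4 or 10, with slopes of at least 1.36 and adjusted p of 0.0814, 0.249, 0.0503 and 0.0641. DPE2 (0.61 ± 0.17, adjusted p = 0.0552) and SS4 (0.89 ± 0.27, adjusted p = 0.0745) passed in the DESeq2 Wald test and not in edgeR. APL1, the partner subunit of APS1, had a slope of 0.51 ± 0.21 (adjusted p = 0.146). The subunits had a Pearson r of 0.64 over the 10 libraries (Spearman rho of 0.81, permutation p of 0.0479 and 0.00739), 0.63 without the 2 libraries farthest in APS1, and an adjusted p of 0.419 over all genes.

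The level of 3 of the 10 enzymes passed the permutation test against the share of chloroplast counts after adjustment. APS1 (r = -0.89, rho = -0.73, permutation p of 0.00115 and 0.0205, adjusted p = 0.026) and DPE2 (r = -0.82, rho = -0.81, p of 0.00407 and 0.00708, adjusted p = 0.0434) were lower where the chloroplast share was higher. Without the 2 libraries farthest from the median share, r was -0.87 for APS1 and -0.65 for DPE2. BAM3 passed too (r = -0.83, rho = -0.83, adjusted p = 0.0292, over both sets of its levels), so that 3 of 10 enzymes passed after adjustment over all genes, against 11.1% of all genes. SS4 (r = -0.77, rho = -0.78, p of 0.00816 and 0.0107, adjusted p = 0.0613) and GWD1 (r = -0.62, rho = -0.62, p of 0.0569 and 0.0599, adjusted p = 0.174) did not pass. Without the 2 libraries farthest from the median share, r was -0.59 for SS4 and -0.44 for GWD1. Only DPE1 had a positive r (0.49, adjusted p = 0.318). With the chloroplast share as a second covariate, BAM3 kept its call on GWD1 (slope 1.11, adjusted p = 0.0279), whereas SS4 (0.71, adjusted p = 0.072), DPE2 (0.34, adjusted p = 0.272) and the slope of BAM3 on APS1 (0.56, adjusted p = 0.869) lost it. In the fits on GWD1 and on APS1 without this covariate, the calls were the same when the scaling used nuclear genes alone. The fits with the covariate and the correlations with the share were not repeated under that scaling.

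A clock index was taken as the mean log2 CPM of the evening genes TOC1, GI, ELF4 and LUX minus that of the morning genes CCA1, LHY, PRR9 and RVE8. It ranged between -3.01 (replicate 10) and -1.64 (replicate 3). The slope on this index passed in edgeR for 0 of the 10 enzymes and for 0% of all genes. At an unadjusted p under 0.05, 7 of the 10 enzymes had negative slopes (APS1, APL1, GBSS1, SS4, BAM3, DPE2 and SEX4), against 12.9% of all genes in either direction. DESeq2 called 289 of 18435 genes and 0 enzymes. The lowest adjusted p among the enzymes was 0.237, for APL1, with a slope of -0.43 ± 0.14 (SE). Without the 2 libraries farthest from the median of the index, r with it was -0.61 for APL1 and for SEX4, in place of -0.77 and -0.75 over all 10 (rho of -0.71 and -0.65, permutation p of r of 0.00809 and 0.0132, of rho of 0.0264 and 0.0492). For APS1, GBSS1, SS4 and DPE2, r was only -0.11, -0.15, -0.13 and -0.22 without them, in place of -0.69, -0.56, -0.65 and -0.74 (permutation p of 0.0294, 0.107, 0.0432 and 0.0147; rho of -0.65, -0.35, -0.47 and -0.54 with p of 0.0489, 0.329, 0.179 and 0.114). For BAM3 it was 0.09, in place of -0.57 (permutation p of 0.0874, rho of -0.47 with p of 0.179). The size of r for these 5 enzymes thus depended on those 2 libraries. They lie at both ends of the index, so leaving them out also narrowed its range, and the part of that was not tested. With 1 library left out, the edgeR slopes of all 5 stayed negative. The slope of GBSS1 was -0.04 without replicate 10, in place of -0.39. SS1, which had not passed, had r = 0.46 without the 2 libraries farthest from the median, in place of -0.57 (rho = -0.20, permutation p of 0.0832 and 0.584). The permutation test of the index against each gene also passed for 0% of all genes.

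**Figure D4:**
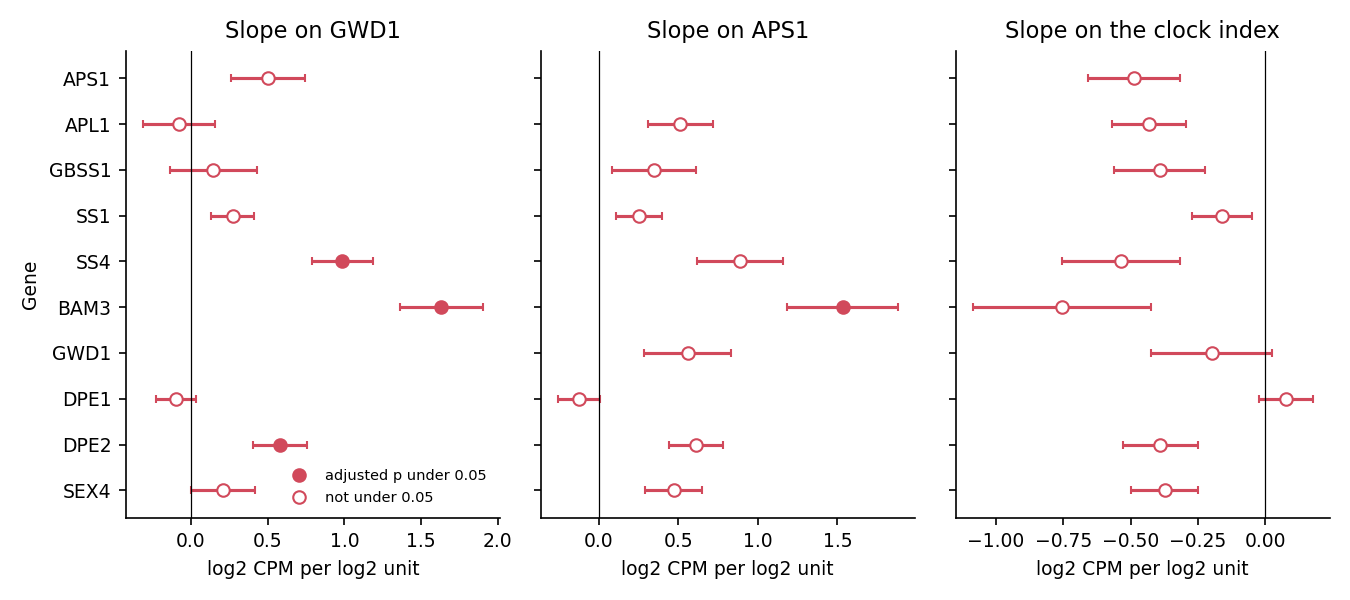
Slopes of the starch enzymes on GWD1, on APS1 and on the clock index over 10 libraries, in log2 CPM per log2 unit, with SE as error bars. Filled points had an adjusted p under 0.05 in edgeR: BAM3, SS4 and DPE2 on GWD1, BAM3 on APS1 and none on the clock index.

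Among the 45 pairs of enzymes, 9 had a Pearson r of at least 0.8, against 2.39% of all pairs of genes tested. The median r was 0.50 within synthesis, 0.39 within breakdown and 0.53 between the roles, pairs with BAM3 included. The permutation test of r was adjusted over all genes from the side of each enzyme, and the larger adjusted p of a pair is given. By this stricter rule it passed for 5 pairs. Adjusted from the side of the enzyme alone, 6.18% of the tests of an enzyme with any gene passed. These 5 pairs joined only SS4, BAM3, GWD1 and DPE2. SS4 and GWD1 had r = 0.85 and rho = 0.83 (permutation p of 0.00133 and 0.00469, adjusted p = 0.0303), with r = 0.95 without the 2 libraries farthest in GWD1 and 0.79 without the 2 farthest in SS4. SS4 and DPE2 had r = 0.89 and rho = 0.87 (permutation p of 0.00037 and 0.00245, adjusted p = 0.0266), and r = 0.78 without the 2 farthest in SS4. SS4, a synthesis gene, thus passed with 3 breakdown genes. The other 3 pairs were BAM3 with DPE2, SS4 and GWD1, each over both sets of BAM3 levels. The test did not pass for GWD1 with DPE2 (r = 0.80, rho = 0.79, permutation p of 0.00571 and 0.00906, adjusted p = 0.0631), which had r = 0.77 without the 2 libraries farthest in GWD1. APL1 and SEX4 had r = 0.84 and rho = 0.81 (permutation p of 0.00155 and 0.00708), and r = 0.63 without the 2 farthest in APL1, with an adjusted p of 0.575.

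Replicate 10 decided part of these values. Without it, the median r was 0.04 within synthesis and 0.28 between the roles. GBSS1 and SEX4 had r = 0.71 over all libraries (rho = 0.43, permutation p of 0.0282 and 0.217, adjusted p = 1.0), 0.35 without the 2 farthest in GBSS1, -0.02 without the 2 farthest in SEX4 and 0.29 without replicate 10. DPE1 had negative coefficients with 8 of the 9 other enzymes and passed with none of them. These signs are not separate observations, because several of the other enzymes were correlated with each other. The share of negative coefficients over all genes was not computed. With SS4 it had r = -0.55 (rho = -0.29, permutation p of 0.0997 and 0.427, adjusted p = 0.623), and -0.41 without the 2 libraries farthest in SS4.

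The genes with the highest r to each enzyme were looked up among 18441 genes, as a description over 10 libraries. For GWD1 these were EMB2763 (0.97, rho = 0.93), AT1G29880 (0.97, rho = 0.88) and CAF2 (0.97, rho = 0.93). For APS1 they were cpHsc70-2 (0.98, rho = 0.96), AT5G14260 (0.98, rho = 0.95) and GGT1 (0.98, rho = 0.87). DPE2 was nearest to ARC5 (0.98, rho = 1.0), SS4 to AT1G73460 (0.98, rho = 0.92), BAM3 to AT5G24990 (rho = 0.92) and SS1 to AT2G19930 (0.96, rho = 0.98). APL1 was nearest to CSK (0.98, rho = 0.88), SEX4 to AT4G09750 (0.96, rho = 0.83) and GBSS1 to UMAMIT38 (0.91, rho = 0.84). DPE1 had the lowest such maximum, with AT4G38495 (0.89, rho = 0.83). No enzyme was the nearest gene of another.

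A list of 39 other starch genes was set beside the 10 enzymes, of which 38 were tested. The genes with the highest level per length were PHS2, the cytosolic glucan phosphorylase (52.9 ± 9.49 CPM per kilobase, SD, n = 10), PHS1, its chloroplast counterpart (17.7 ± 3.86), and PGM1, the chloroplast phosphoglucomutase (16.8 ± 1.42). The lowest were APS2, a second gene of the small subunit family (0 to 7 counts, not tested), and the alpha-amylase gene AMY1 (4 to 26 counts).

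Among these genes, 8 rose with GWD1 and 3 fell with it, of 38 tested, against 13.8% and 9.82% of all genes, and the median slope was 0.10. Both phosphorylases rose. PHS1 had a slope of 1.07 ± 0.17 (SE, adjusted p = 0.00114) and 37.5 CPM in the lowest, 56.3 in the median and 73.8 CPM in the highest library. PHS2 had a slope of 0.88 ± 0.17 (adjusted p = 0.00303) and 130 CPM in the lowest, 179 in the median and 202 CPM in the highest library. ISA2, a subunit of the debranching enzyme of synthesis, had a slope of 1.22 ± 0.25 (adjusted p = 0.00374), and ISA3, a debranching enzyme of breakdown, one of 0.67 ± 0.17 (adjusted p = 0.0106). The branching enzyme gene BE3 (0.54 ± 0.13, adjusted p = 0.00938) and the related BE1 (0.77 ± 0.22, adjusted p = 0.0214) rose, and the starch synthase gene SS3 also rose (0.84 ± 0.25, adjusted p = 0.0242). APL3, named after its value was seen, was the remaining gene that rose (0.72 ± 0.23, adjusted p = 0.0358). The other 3 debranching and branching enzyme genes, named after their values were seen, did not pass against GWD1, with slopes of 0.44 ± 0.20 for BE2 (adjusted p = 0.121), 0.25 ± 0.14 for LDA (adjusted p = 0.204) and 0.01 ± 0.13 for ISA1 (adjusted p = 0.961). The alpha-amylase gene AMY2 fell with GWD1 (slope -1.39 ± 0.31, adjusted p = 0.00612), with 4.35 CPM in the lowest, 8.15 in the median and 11.02 CPM in the highest library. ESV1, a starch granule protein, fell too (-0.89 ± 0.26, adjusted p = 0.0254). The third gene that fell was PGLCT, a chloroplast glucose transporter, named after its value was seen (-0.42 ± 0.14, adjusted p = 0.0348).

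**Figure D5:**
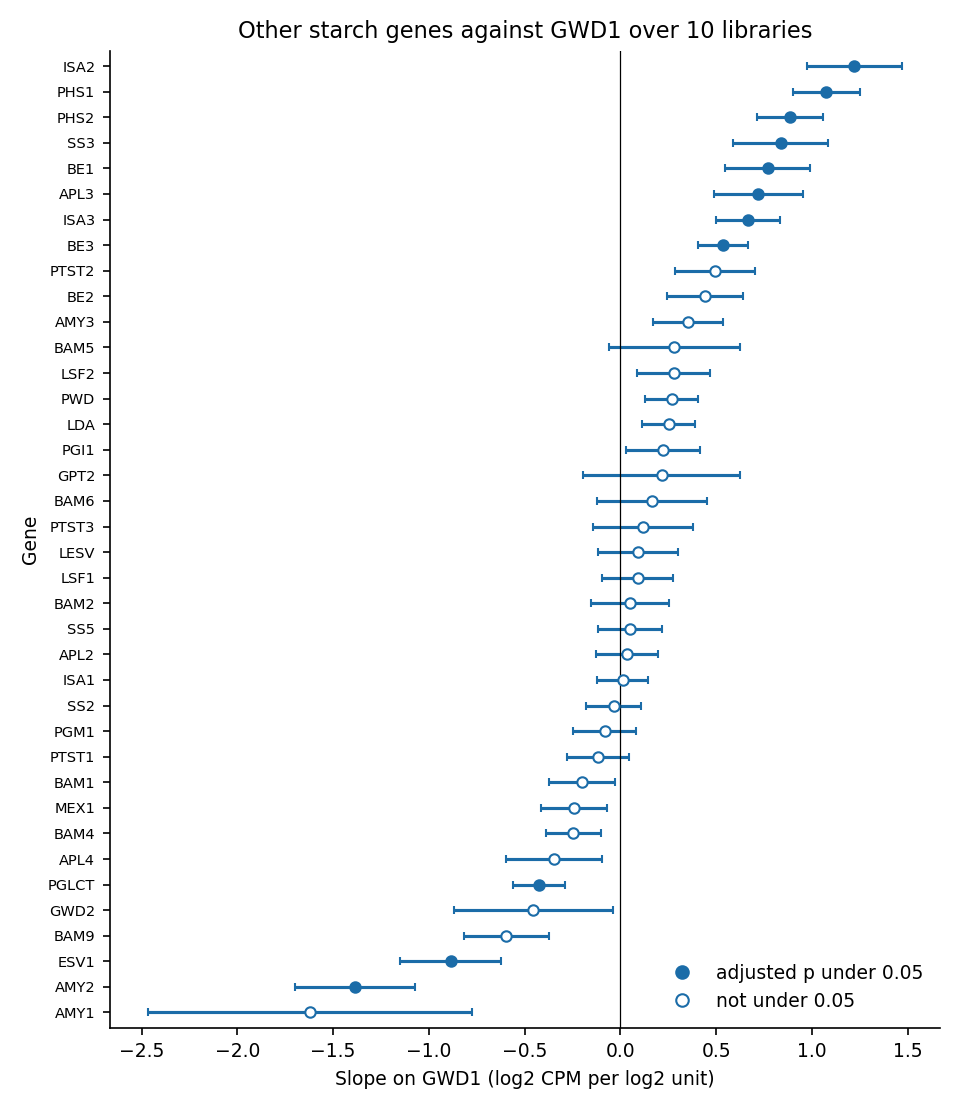
Slopes on GWD1 of the 38 other starch genes tested, in log2 CPM per log2 unit over 10 libraries, with SE as error bars and filled points for an adjusted p under 0.05 in edgeR. A group of 8 genes rose with GWD1, led by ISA2 at 1.22 ± 0.25, and 3 fell with it.

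Against APS1, 6 of the 38 rose and 0 fell, against 2.78% and 1.95% of all genes. ISA2 had a slope of 1.40 ± 0.24 (SE, adjusted p = 0.0182), SS3 one of 0.97 ± 0.23 (adjusted p = 0.038) and PHS1 one of 0.96 ± 0.25 (adjusted p = 0.0461). AMY3, the alpha-amylase of the chloroplast, had a slope of 0.61 ± 0.14 (adjusted p = 0.0319) and had not passed against GWD1. BE2, which had not passed against GWD1 either, had a slope of 0.67 ± 0.16 (adjusted p = 0.0342). PGI1, named after its value was seen, was the remaining gene that rose (0.59 ± 0.14, adjusted p = 0.0361). On the clock index, edgeR called 0 of the 38, and DESeq2 called 5, all downward, against 289 of 18435 genes in either direction.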

How the data were processed

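The data were stranded, ribosomal-depleted, single-end RNA-Seq libraries of total RNA. The deposited files give whole-number counts of reads per gene, not normalized, which the authors made with STAR and, where the submitters' processing notes name it, featureCounts, on TAIR10. The annotation, the strand setting and the treatment of reads that match several places are not given in the sources used here, and the chloroplast share depends on the last. The series text speaks of 5 biological replicates, whereas the labels and the methods give 10, and all 10 were used as replicates. The p-values measure the spread between these libraries. Counts were scaled with TMM factors and the 18442 of 32744 genes that averaged 10 counts or more were kept. Slopes were tested with edgeR 4.0.16 (glmQLFit, glmQLFTest, R 4.3.3) on the centred log2 CPM (prior count of 2) of GWD1, of APS1 or of the clock index, adjusted over all genes at 5%. The covariate was taken as free of error, and its own gene or genes were left out. DESeq2 1.42.0 was an alternative. Correlations of log2 CPM were tested with 100000 permutations, two-sided (numpy 2.4.6), and 1e-05 is the smallest p they can give. For a pair of enzymes, the adjusted p is the larger of those from the sides of both genes. The chi-square per degree of freedom between any 2 of the 10 N-limiting libraries was at least 7.88, so none of these 10 repeated another. Gene models, lengths and promoters came from RefSeq TAIR10.1, whose annotation matched all 10 identifiers and the 39 others. The text names the 10 enzymes, the genes most correlated with each (3 for GWD1 and APS1, 1 for the others), the 10 other starch genes with the lowest adjusted p among those past a test, and the 3 highest and 2 lowest by level per length. Members and lists were chosen with earlier results of these data known.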

Additional observations from a re-analysis of the deposited data

Results flagged for a closer look

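The gap between the highest or lowest library and the next, as a share of the range, was examined in 52 sets of 10 libraries (10 enzymes, 38 other starch genes and 4 library measures) against Dixon's critical value for 10 values. It was exceeded in 4, where chance gives about 1 in 20. GBSS1 had 96.1 CPM in replicate 10, and the next library had 68.1 CPM. SS2, a starch synthase gene named after its values were seen, had 19.0 CPM in replicate 10, and the next library had 17.0 CPM. Replicate 10 also had the highest total, 60323158 counts, with 50240504 in the next library, and its part in both levels was not tested. AMY1 had 0.783 CPM in replicate 3, and 0.246 CPM in the next library, at 4 to 26 counts per library.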

How the results depend on the processing

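No paired analysis was possible because the libraries of the 2 nitrogen supplies with the same replicate number held equal counts, and the comparison of the supplies was not run for that reason. DESeq2 size factors, scaling on nuclear genes alone and the inclusion of all genes with at least 1 count left the number of enzymes passing against GWD1 at 3, against APS1 at 1 and on the clock index at 0. Leaving out 1 library gave 2 to 3 on GWD1, 0 to 2 on APS1 and 0 on the clock index. DESeq2's Wald test gave 3 on APS1. With the chloroplast share as a second covariate, an alternative chosen after seeing the data, the numbers were 1 on GWD1 and 0 on APS1. This covariate also turned the uncalled slopes of APS1 and SEX4 on GWD1 to -0.0195 and -0.0862, of GWD1 and DPE1 on APS1 to -0.0697 and 0.00021 and of GWD1 on the clock index to 0.098. Without 1 library, the slope of APL1 on GWD1 ran from -0.253 to 0.0127, of GBSS1 on APS1 from -0.111 to 0.580 and of GWD1 on the clock index from -0.304 to 0.0283, and replicates 9, 10 and 3 were those left out where the sign turned. The clock index without ELF4, which had at most 1 count, also gave 0. Spearman coefficients gave medians of 0.33 within synthesis and 0.59 within breakdown. The medians without 1 library ran from 0.0442 to 0.546 within synthesis, from 0.29 to 0.62 within breakdown and from 0.28 to 0.59 between the roles. Leaving out pairs with BAM3, also chosen after seeing the data, gave 0.12 within breakdown. The number of enzymes with a ratio above 1.5 was 4 to 8 without 1 library and 9 with total counts only, a scaling that raised every coefficient of variation (to 11.9% for DPE1 and 43.9% for BAM3). Of 430 alternative values of the slopes, 409 kept their direction and side of the threshold. Most of the 430 belong to slopes that had not passed and so had no call to lose. In 10 values a slope that had passed lost its call (DPE2 and SS4 on GWD1, BAM3 on APS1). In 3 an uncalled slope gained a call, and in 8 an uncalled slope changed sign. The cause of the changes was not tested. With 10 libraries of 1 condition, slopes cover only the variation among these rosettes, and genes under 10 mean counts were not tested.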
